A study of Homo sapiens with 6 samples.

Results

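The genes described here are 10 components of the translation machinery that lies downstream of the growth kinase mTORC1: the eIF4E-binding proteins EIF4EBP1 and EIF4EBP2, the initiation factors EIF4E, EIF4G1 and EIF4B, the S6 kinases RPS6KB1 and RPS6KB2, the initiation inhibitor PDCD4, the elongation kinase EEF2K and the elongation factor EEF2. They were chosen by gene symbol, with earlier results of these data known, and all 10 were among the 18417 genes tested. Expression was measured on 6 arrays of Du145 cells, an established human prostate carcinoma line, kept at 1% oxygen with 10% serum and taken after 24 h of hypoxia. The 3 groups of 2 arrays were control cells, cells infected with a lentivirus carrying a short hairpin against TSC2 (shTSC2), and cells adapted from that knockdown (shTSC2-adapted). All arrays share the hypoxia. The labels give no virus for control cells, do not say what the adaptation was, and do not say whether arrays of a group came from separate cultures, so p-values reflect only how far these arrays spread, which may be technical. Since the knockdown groups carry the hairpin and no virus is given for control cells, effects of infection or of the hairpin cannot be told apart from those of lower TSC2.

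TSC2 restrains mTORC1. When mTORC1 is active it phosphorylates the eIF4E-binding proteins, which then release the cap-binding protein eIF4E so that it can join the scaffold eIF4G and the helicase eIF4A at the 5′ end of an mRNA. It also activates the S6 kinases, which phosphorylate ribosomal protein S6, activate eIF4B, mark PDCD4 for degradation through the ubiquitin ligase subunit BTRC, and inhibit EEF2K, the kinase that silences elongation factor 2. These steps act on proteins. The arrays measure only the amount of each mRNA, and less RNA per cell cannot be told apart from fewer cells that express it.

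A set of mRNAs whose translation follows mTORC1 closely starts with a C followed by a run of pyrimidines, the terminal oligopyrimidine or TOP start. RefSeq promoter windows on GRCh38.p14, which run from 250 bases before to 50 bases after each annotated start, matched 9 of the 10 members. A TOP start, searched as a C at the first transcribed base followed by at least 4 pyrimidines on the transcribed strand, was found in EIF4B and EEF2 and in no window of the other 7 matched members. The same search found one in 4.07% of 35116 windows of all genes. The start regions of these genes and of the other members that passed a test below are shown from 10 bases before to 20 bases from the start, 5′ to 3′ on the strand of the gene, with the pyrimidine run at the start in capitals. They lie at chr12:53006446-53006475 on the plus strand (EIF4B), chr19:3985444-3985473 on the minus strand (EEF2), chr10:110871918-110871947 on the plus strand (PDCD4), chr11:67428484-67428513 on the plus strand (RPS6KB2) and chr10:70404135-70404164 on the plus strand (EIF4EBP2).
EIF4B: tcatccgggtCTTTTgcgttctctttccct
EEF2: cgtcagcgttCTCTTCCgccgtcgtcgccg
PDCD4: gagaagggccagagactctccgaggcggcg
RPS6KB2: cgggactgtcagtcagtgcgcggccaggta
EIF4EBP2: gccttcgcccgcttccggtcgtcgtcgtcg

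The run was 5 bases long in EIF4B and 7 in EEF2. The same windows were searched on both strands for 4 further motifs: the E-box CACGTG, which MYC, USF and TFEB family factors bind, the cyclic AMP response element TGACGTCA, the FOXO element GTAAACA and the ATF4 element TGATGNAA. The motifs do not contain one another. They occur in 7.26%, 1.85%, 3.42% and 3.62% of all windows. EIF4B held an E-box at bases -22 to -17 from its start, and EEF2 a cyclic AMP response element at bases -13 to -6. E-boxes were also found in the windows of EIF4E, EIF4G1 and EEF2K. The windows of PDCD4, RPS6KB1, RPS6KB2 and EIF4EBP2 held none of the 4 motifs. The 120 bases before the start are shown for EIF4B (chr12:53006336-53006455, plus strand) and EEF2 (chr19:3985464-3985583, minus strand), which hold a match, and for PDCD4 (chr10:110871808-110871927, plus strand), the member with the largest change, with matches in capitals. A match describes these letters only.
EIF4B: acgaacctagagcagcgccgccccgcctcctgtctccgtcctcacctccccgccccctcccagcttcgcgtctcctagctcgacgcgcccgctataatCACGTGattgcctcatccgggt
EEF2: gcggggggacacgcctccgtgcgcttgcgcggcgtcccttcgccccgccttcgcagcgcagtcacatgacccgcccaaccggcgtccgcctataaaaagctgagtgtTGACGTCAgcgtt
PDCD4: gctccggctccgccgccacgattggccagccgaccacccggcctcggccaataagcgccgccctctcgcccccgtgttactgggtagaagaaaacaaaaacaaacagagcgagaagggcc

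All levels below are log2 intensities, in which 1 unit is a doubling. A change is the difference of 2 group means with its standard error (SE, n = 2 arrays per group), and p-values are two-sided, from limma, adjusted over every gene tested, with a threshold of 0.05. Median intensities of the arrays were 58.1 to 63.1, and arrays of 1 group correlated across genes at Pearson r = 0.990 to 0.997. TSC2, the targeted gene, stood at 7.52 and 7.59 in control and at 6.48 to 6.67 in the 4 knockdown arrays. It fell by 0.945 in shTSC2 (SE 0.10, adjusted p = 0.00102) and by 1.045 in shTSC2-adapted (SE 0.10, adjusted p = 0.0241). The second call ended without either control array (adjusted p = 0.386 and 0.373) or without either shTSC2-adapted array (0.169 and 0.0973), and adjusted p was 0.00354 to 0.386 over 17 other settings. All 8 epithelial markers were measured. None had a mean under 4.33, the lower quartile over probe sets, and 2 lay below the median of 5.91. That cut alone does not show presence, as the 2 measured androgen axis markers also cleared it. The brightest were KRT8 (11.24 and 11.22 in control) and KRT18 (11.31 and 11.23). The log2 of the summed linear intensities of the epithelial list, in which the brightest genes weigh most, was 12.68 to 12.76 in control. It was 12.86 to 12.93 in shTSC2 and 12.94 to 12.95 in shTSC2-adapted. Within that list EPCAM and KRT19 fell in shTSC2 (-1.29 and -1.38), KRT7 rose (0.44), and EPCAM, KRT19, CDH1 and CLDN7 were higher in shTSC2-adapted than in shTSC2 (1.65, 1.55, 1.54 and 0.69). Of 6 markers of an embryonic kidney packaging line, PAX2 and NEFM rose in shTSC2 (0.49 and 0.99). LHX1, PAX8, WT1 and NEFL did not pass there (0.065, 0.185, -0.18 and 0.405). None of the 6 lay below the lower quartile. The same sum for that list was 8.78 to 8.83 in control, 9.04 to 9.25 in shTSC2 and 8.93 to 9.31 in shTSC2-adapted. In shTSC2 the sum also lay above control for lymphoid and myeloid markers (7.22 to 7.26 against 7.05 to 7.07). So it did for neuroendocrine (10.22 to 10.23 against 9.93 to 9.98), fibroblast (8.33 to 8.35 against 8.17 to 8.25) and androgen axis markers (6.28 to 6.35 against 6.13 to 6.25). Endothelial sums overlapped (6.71 to 6.77 against 6.64 to 6.72). The part of packaging cells in the results was not tested. No measured marker of fibroblasts, endothelium, blood cells, neuroendocrine cells or the prostate androgen axis passed in any comparison.

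In shTSC2 cells the mRNAs of PDCD4, EIF4B and EIF4EBP2 fell and that of RPS6KB2 rose, while the other 6 members did not pass. Thus 4 of 10 members were called, 3 lower and 1 higher, where 20.8% of all genes were called, 13.9% lower and 6.87% higher. The members were chosen with earlier results of these data known, so the shares here and below are a description. Of the genes called, 1266 were higher and 2567 lower, and with median centring 869 and 2962. The arrays of both groups did not overlap for 7 of the 10 members, which was so for 62.0% of all genes. The median change of the members was -0.27 and that of all genes 0.025. In shTSC2-adapted against control 0 of 10 members passed, against 0.261% of all genes, and 3 of 10 had an unadjusted p under 0.05 (limma), against 12.6% of all genes. The median there was -0.105, and that of all genes was -0.005. The groups did not overlap for 6 members, beside 45.9% of all genes. Between shTSC2-adapted and shTSC2, PDCD4 and EIF4B were higher and RPS6KB2 lower in the adapted cells, which makes 3 of 10 members called, 2 higher and 1 lower, where 12.5% of all genes were called, 9.25% higher and 3.24% lower. Here 6 members did not overlap, beside 52.1% of all genes, and the median was 0.10, that of all genes being -0.025. The 3 comparisons share arrays, so their changes are not independent of each other.

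**Figure D1:**
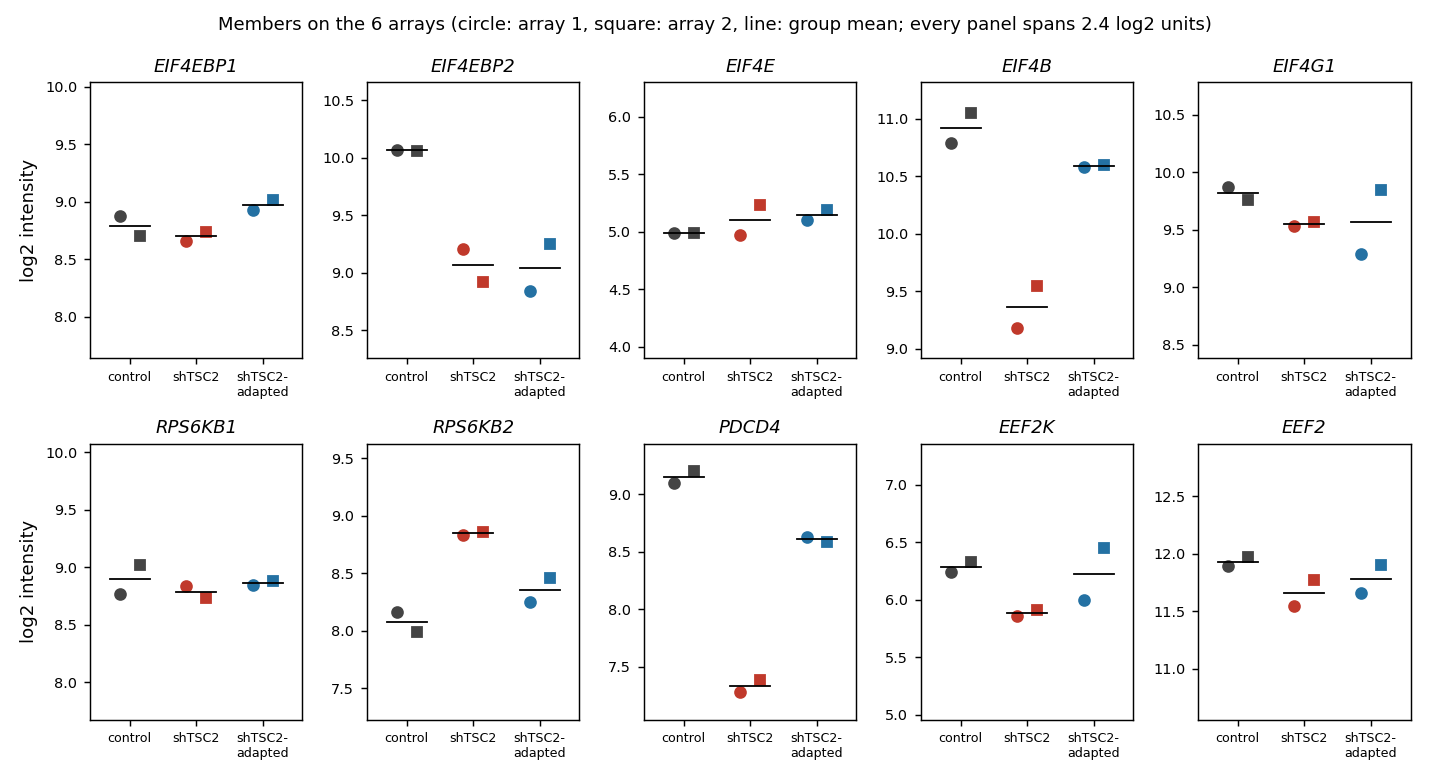
Log2 intensity (vertical axis, each panel spanning the same range) of the 10 genes on each of the 6 arrays, by group (horizontal axis), with the group mean as a line. PDCD4 and EIF4B are lowest on the shTSC2 arrays, with the shTSC2-adapted arrays between these and control, EIF4EBP2 is low on all 4 knockdown arrays, and RPS6KB2 is highest on the shTSC2 arrays.

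PDCD4, which binds the helicase eIF4A and blocks its entry into the initiation complex, showed the largest change of the members. Its level was 9.10 and 9.20 in control, 7.28 and 7.39 in shTSC2, and 8.63 and 8.59 in shTSC2-adapted. The 3 groups did not overlap, with shTSC2 lowest and shTSC2-adapted between. PDCD4 fell by 1.815 in shTSC2 (SE 0.10, adjusted p = 0.000256), so that 28.4% of the control level was left (95% interval 24.3% to 33.3%), and it ranked 11 of 18417 genes by p. Adapted cells exceeded shTSC2 cells by 1.275 (SE 0.10, adjusted p = 0.00111), or 242% of the shTSC2 level (207% to 283%). Against control the adapted cells stood at -0.54 (SE 0.10, adjusted p = 0.0796), or 68.8% of the control level (58.8% to 80.5%). That last comparison passed under 4 of 17 other settings. These were array weights (adjusted p = 0.0271), only the 4 arrays compared (0.0485) and the omission of either shTSC2 array. Apart from array weights, these are the same fit for this comparison. It did not pass without either control array or without either adapted array. The other PDCD4 calls held under all 17.

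EIF4B, the cofactor that raises the activity of eIF4A and a substrate of the S6 kinases, followed the same order. Its brightest probe set stood at 10.79 and 11.05 in control, 9.18 and 9.54 in shTSC2, and 10.58 and 10.60 in shTSC2-adapted. Again the groups did not overlap and shTSC2 was lowest. It fell by 1.56 in shTSC2 (SE 0.15, adjusted p = 0.000771), to 33.9% of control (26.8% to 42.9%). Adapted cells exceeded shTSC2 cells by 1.23 (SE 0.15, adjusted p = 0.00370). The adapted cells stood at -0.33 against control (SE 0.15, adjusted p = 0.413), with a 95% interval from -0.67 to 0.01.

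EIF4B is the only member with more than 1 probe set. The second set stood at 7.34 and 7.73 in control, 6.67 and 6.55 in shTSC2, and 7.37 and 7.28 in shTSC2-adapted. The third stood at 9.79 and 9.91, 7.76 and 8.34, and 9.32 and 9.45 in the same order. The shTSC2 arrays were lowest on all 3 sets. In a limma fit of all 19460 probe sets with 1 symbol, the second set (-0.925, SE 0.14, adjusted p = 0.00455) and the third (-1.80, SE 0.18, adjusted p = 0.00115) both fell in shTSC2. Both were higher in shTSC2-adapted than in shTSC2 (0.715 and 1.335, adjusted p = 0.0199 and 0.00607), and neither passed against control (adjusted p = 0.630 and 0.355). The platform's table lists the same transcript records for the third set as for the brightest, and a different record for the second.

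**Figure D2:**
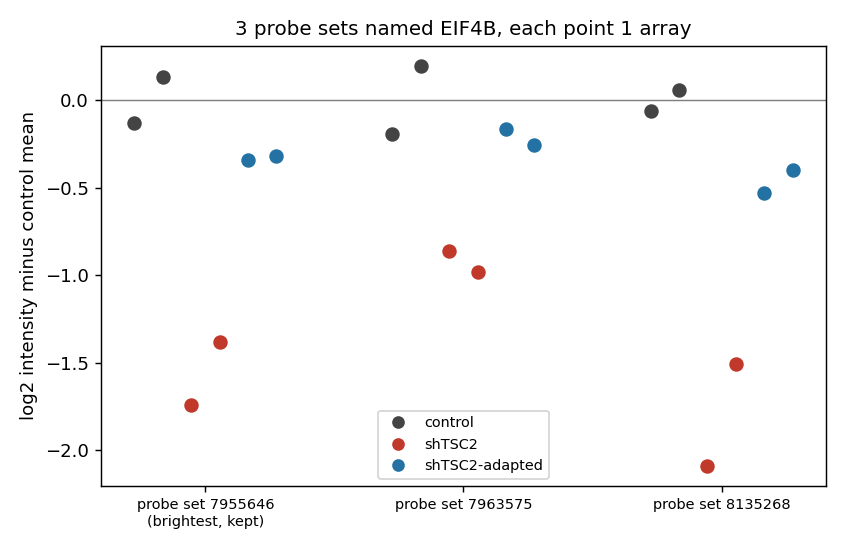
Log2 intensity minus the control mean (vertical axis) of the 3 probe sets named EIF4B (horizontal axis), with 1 point per array coloured by group. The shTSC2 arrays lie lowest on each set, with mean changes of -1.56, -0.925 and -1.80.

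Of the eIF4E-binding proteins, EIF4EBP2 fell in shTSC2 and EIF4EBP1 did not pass. EIF4EBP2 stood at 10.07 and 10.06 in control, 9.21 and 8.92 in shTSC2, and 8.84 and 9.25 in shTSC2-adapted. All 4 knockdown arrays lay below both control arrays, and the knockdown groups overlapped. It fell by 1.00 in shTSC2 (SE 0.16, adjusted p = 0.00477), to 50% of control (38.7% to 64.6%). That call ended without control array 2 (adjusted p = 0.0520; range over 17 settings 0.00112 to 0.0520). In shTSC2-adapted the difference from control was of like size, -1.02 (SE 0.16, 95% interval -1.39 to -0.65), but did not pass over all genes (adjusted p = 0.0636). It passed under 9 of 17 other settings, with the lowest adjusted p (0.0131) under array weights. Among the 9, only the 4 arrays compared (0.0349) and the omission of either shTSC2 array are the same fit. It did not pass without either control array or without either adapted array. Between the knockdown groups the difference was -0.02, with a 95% interval from -0.39 to 0.35.

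EIF4EBP1, the paralog that is the best-known mTORC1 substrate, stood at 8.88 and 8.70 in control, 8.66 and 8.74 in shTSC2, and 8.93 and 9.02 in shTSC2-adapted. Control and shTSC2 overlapped, and the adapted arrays were highest. It did not pass in any comparison: -0.09 in shTSC2 (95% interval -0.33 to 0.15), 0.185 in shTSC2-adapted (-0.06 to 0.43), and 0.275 between the knockdown groups (0.03 to 0.52, adjusted p = 0.141). Within each array, EIF4EBP1 minus EIF4EBP2 was -1.19 and -1.36 in control, -0.55 and -0.18 in shTSC2, and 0.09 and -0.23 in shTSC2-adapted. The knockdown arrays did not overlap with control in this difference. An exact two-sided permutation test of 2 against 2 arrays cannot go below p = 0.333, so whether the paralogs differ in their change is a description here, without a test.

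Of the S6 kinase genes, RPS6KB2 rose in shTSC2 and RPS6KB1 did not pass. RPS6KB2 stood at 8.16 and 7.99 in control, 8.83 and 8.86 in shTSC2, and 8.25 and 8.46 in shTSC2-adapted. The groups did not overlap, and shTSC2 was highest. It rose by 0.77 in shTSC2 (SE 0.11, adjusted p = 0.00360), to 171% of control (142% to 205%), a call that ended without control array 2 (adjusted p = 0.0519; range 0.00205 to 0.0519). In shTSC2-adapted it was 0.49 lower than in shTSC2 (-0.49, SE 0.11, adjusted p = 0.0317). That call ended under 11 of 17 other settings, among them median centring, array weights, the replicate block and the omission of any 1 array. Omitting either control array is the same fit here as only the 4 arrays compared (adjusted p = 0.0728). Against control the adapted cells stood at 0.28 (SE 0.11, adjusted p = 0.366).

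RPS6KB1, which encodes the better-studied S6 kinase, stood at 8.77 and 9.02 in control, 8.84 and 8.73 in shTSC2, and 8.85 and 8.88 in shTSC2-adapted. Both knockdown groups overlapped with control. Its changes were -0.11 in shTSC2 (95% interval -0.38 to 0.16), -0.03 in shTSC2-adapted (-0.30 to 0.24) and 0.08 between the knockdown groups (-0.19 to 0.35), none of which passed. Within an array, RPS6KB2 minus RPS6KB1 was -0.61 and -1.03 in control, -0.01 and 0.13 in shTSC2, and -0.60 and -0.42 in shTSC2-adapted. Both shTSC2 arrays lay above the other 4. The mean difference moved by 0.88 from control to shTSC2 and by -0.57 from shTSC2 to shTSC2-adapted, again as a description without a test.

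**Figure D3:**
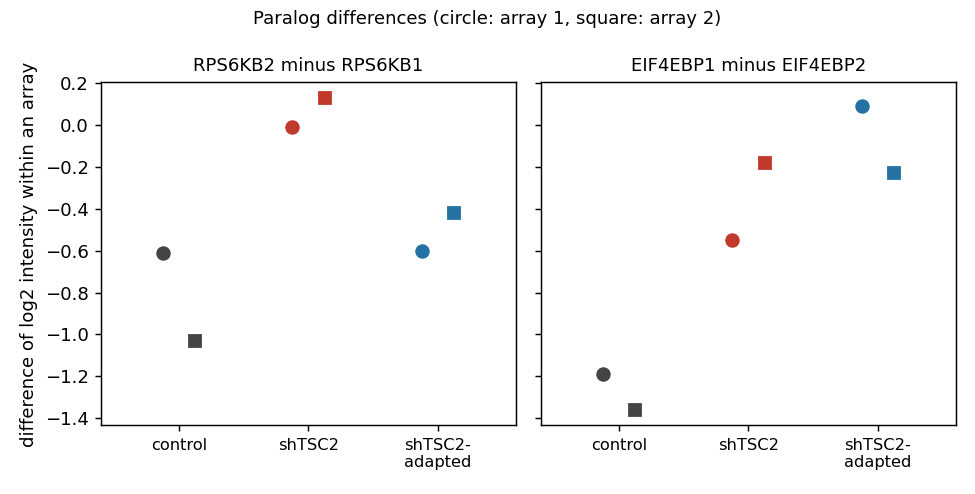
Difference of log2 intensity within an array (vertical axis) for RPS6KB2 minus RPS6KB1 and for EIF4EBP1 minus EIF4EBP2, by group (horizontal axis) with 1 point per array. The first is highest on both shTSC2 arrays (-0.01 and 0.13), and the second is higher on all 4 knockdown arrays than on the control arrays.

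The cap-binding factor and its scaffold did not pass in any comparison. EIF4E stood at 4.99 on both control arrays, 4.97 and 5.23 in shTSC2, and 5.10 and 5.19 in shTSC2-adapted. These levels lie below the median of all probe sets (5.91), at percentile 25.9 of the genes by mean level. They are near those of the endothelial marker PECAM1 (4.94 and 4.93 in control), so a flat reading does not show that the EIF4E mRNA was unchanged. The shTSC2 arrays overlapped with control. The changes of EIF4E were 0.11 in shTSC2 (95% interval -0.16 to 0.38) and 0.155 in shTSC2-adapted (-0.11 to 0.42). EIF4G1 stood at 9.87 and 9.76 in control, 9.53 and 9.57 in shTSC2, and 9.29 and 9.84 in shTSC2-adapted. Both shTSC2 arrays were below control, and the adapted arrays lay further apart than any other pair of a group among the members, one below and one within the control range. The change was -0.265 in shTSC2 (SE 0.17, adjusted p = 0.328) and -0.25 in shTSC2-adapted (SE 0.17, adjusted p = 0.635).

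At elongation, EEF2K stood at 6.24 and 6.33 in control, 5.86 and 5.91 in shTSC2, and 6.0 and 6.45 in shTSC2-adapted. The shTSC2 arrays were lowest and did not overlap with either group. The change in shTSC2 was -0.40 (SE 0.15, adjusted p = 0.104). Of 16 other settings, it passed only with the 4 arrays compared alone (adjusted p = 0.0361) and without either adapted array. These are the same fit for this comparison, so they are not separate results. Against shTSC2 the adapted cells stood at 0.34 (adjusted p = 0.194). EEF2, which moves the ribosome along the mRNA, stood at 11.89 and 11.97 in control, 11.54 and 11.77 in shTSC2, and 11.66 and 11.90 in shTSC2-adapted. The shTSC2 arrays lay below control. Its change was -0.275 in shTSC2 (95% interval -0.57 to 0.02, adjusted p = 0.174) and -0.15 in shTSC2-adapted (-0.44 to 0.14). EIF4B and EEF2, which share the TOP start, had changes of -1.56 and -0.275 in shTSC2, of which the first passed.

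**Figure D4:**
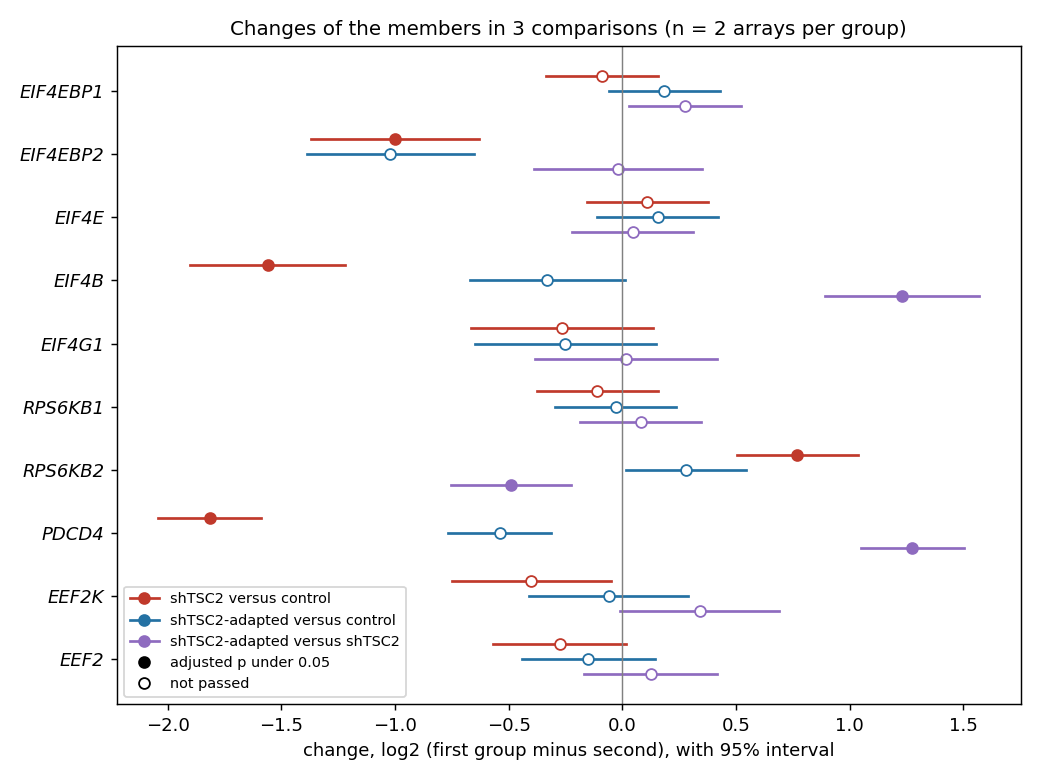
Change on the log2 scale (horizontal axis) with its 95% interval for each member (vertical axis) in the 3 comparisons, with filled points where the adjusted p is under 0.05. PDCD4 and EIF4B have filled points on opposite sides of 0 for shTSC2 versus control and shTSC2-adapted versus shTSC2, while for EIF4EBP2 the intervals of both knockdown groups against control overlap.

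The change of a gene went with its length. Across 18389 genes, which are not independent replicates, the Spearman correlation of the change with the span of the gene was -0.33 in shTSC2, -0.11 in shTSC2-adapted and 0.32 between the knockdown groups. Gene spans were 28.1 kb for PDCD4, 35.8 kb for EIF4B, 24.5 kb for EIF4EBP2 and 6.91 kb for RPS6KB2, with a median of 24.5 kb over all genes. With this trend removed, the changes in shTSC2 were -1.77 for PDCD4, -1.49 for EIF4B, -0.98 for EIF4EBP2 and 0.69 for RPS6KB2, and all 4 passed (adjusted p between 0.000214 and 0.00572). Between the knockdown groups the RPS6KB2 call ended with the trend removed (-0.42, adjusted p = 0.0532). Those of PDCD4 (1.24, adjusted p = 0.00140) and EIF4B (1.17, adjusted p = 0.00521) held. EEF2K, with a span of 82.5 kb, stood at -0.22 (adjusted p = 0.331).

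Around these members, 96 other translation genes were listed, likewise with earlier results known, of which 85 had a probe set of their own. In shTSC2 18 fell (21.2%, beside 13.9% of all genes) and 7 rose (8.24%, beside 6.87%), with a median of -0.12, that of all genes being 0.025. In shTSC2-adapted 0 of 85 passed against control by limma, 16 had an unadjusted p under 0.05 (18.8%, beside 12.6% of all genes), and the median was 0.00. Between the knockdown groups 8 were higher and 1 lower in the adapted cells, together 10.6%, which is near the 12.5% of all genes, and the median was 0.02. The lists are small, and the counts of each are to be read against the same shares of all genes, 13.9% lower and 6.87% higher in shTSC2. Of 14 measured partners of the cap-binding complex, 4 fell in shTSC2 and none rose, while 0 to 5 fell and 0 or 1 rose under 17 other settings (1 rose with quantile normalization). EIF4A2, a helicase that PDCD4 binds, fell by 0.90 (SE 0.14, adjusted p = 0.00452), and its level was 10.27 and 10.56 in control against 9.50 and 9.53 in shTSC2. Its paralog EIF4A1 had no probe set of its own and was not measured. MKNK1, a kinase of eIF4E, stood at -0.425 in shTSC2 (adjusted p = 0.0179) and was 0.51 higher in the adapted cells than in shTSC2 (adjusted p = 0.0149). Among 14 substrates and partners of the S6 kinases, 5 fell and 1 rose in shTSC2, while 1 to 5 fell and 0 to 2 rose under other settings (0 rose with median centring, and 2 fell with the length trend removed). BTRC, the ligase subunit that recognises phosphorylated PDCD4, stood at 7.32 and 7.23 in control, 6.20 and 6.43 in shTSC2, and 7.18 and 7.35 in shTSC2-adapted. The shTSC2 arrays were lowest, and the adapted arrays overlapped with control. BTRC fell by 0.96 in shTSC2 (SE 0.12, adjusted p = 0.00185) and exceeded the shTSC2 level by 0.95 in adapted cells (adjusted p = 0.00395), both of which held under all other settings. The EIF4A2 call ended without control 2 (adjusted p = 0.0543, range 0.000688 to 0.0543). Those of MKNK1 ended under 2 and 5 of 17 settings, both without either control array and the second also without either adapted array or with only the 4 arrays compared (ranges 0.0132 to 0.155 and 0.0127 to 0.0736). RPS6KA6, a kinase of the related RSK family, fell by 0.57, and RRN3, an initiation factor of RNA polymerase I, rose by 0.45 (adjusted p = 0.0123 and 0.0216). The RPS6KA6 call ended without control 2 and with the length trend removed (range 0.00716 to 0.118), and that of RRN3 without either control array, without shTSC2 2 and with median centring (range 0.0158 to 0.180). RPS6, the substrate that names the S6 kinases, stood at 0.145 in shTSC2 (adjusted p = 0.370) and at -0.04 in shTSC2-adapted (adjusted p = 0.936).

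Of 16 genes of eIF1, eIF2, eIF2B, eIF5 and eIF6, 3 rose and 2 fell in shTSC2, while 1 to 4 rose and 0 to 3 fell under other settings. EIF2B2, a subunit of the exchange factor for eIF2, rose by 0.77 (SE 0.11, adjusted p = 0.00279) and EIF2S1, the subunit of eIF2 phosphorylated under stress, by 0.64 (adjusted p = 0.00524). EIF2A, a separate initiation factor, fell by 0.865 (adjusted p = 0.00680), and EIF2S2 was lower in shTSC2 (-0.435, adjusted p = 0.0353) and higher in the adapted cells than in shTSC2 (0.575, adjusted p = 0.0200). Of 12 measured subunits of eIF3, 2 rose and 3 fell, while 1 to 3 rose and 0 to 4 fell under other settings (1 rose with median centring, and 1 fell with the length trend removed). EIF3K stood at 9.79 and 9.67 in control, 10.60 and 10.70 in shTSC2, and 10.07 and 10.25 in shTSC2-adapted. It rose by 0.92 in shTSC2 (SE 0.11, adjusted p = 0.00162), while EIF3E fell by 0.88 (SE 0.18, adjusted p = 0.0123), so subunits of 1 complex went opposite ways. Between the knockdown groups EIF3K was lower (-0.49) and EIF3A, the largest subunit, higher (0.42) in the adapted cells (adjusted p = 0.0270 and 0.0470). The EIF2B2 call and the EIF3K call in shTSC2 held under all other settings. The EIF2A call ended without control 2 (adjusted p up to 0.0767), and those of EIF2S1 and EIF3E without either control array (up to 0.0597 and 0.100). The EIF2S2 calls each ended under 5 of 17 settings (up to 0.198 and 0.105): both without either control array or without shTSC2 1, that in shTSC2 also with quantile normalization and the replicate block, and the other also without adapted 1 and with only the 4 arrays compared. Between the knockdown groups the EIF3A call ended under 11 of 17 settings, among them quantile normalization, median centring, the length trend, the replicate block and the omission of any 1 array other than shTSC2 2 (up to 0.170). The EIF3K call there ended under 7, which were array weights, only the 4 arrays compared and the omission of any 1 array other than shTSC2 1 (up to 0.139).

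Among 10 measured elongation and termination factors 2 fell in shTSC2 (0 to 4 under other settings), the larger fall being that of GSPT2, a release factor (-0.775, SE 0.16, adjusted p = 0.0153). EEF1D, of the exchange factor for eEF1A, was higher in the adapted cells than in shTSC2 (0.515, adjusted p = 0.0394). EEF1A1, which brings aminoacyl-tRNA to the ribosome, stood at -0.225 in shTSC2 (adjusted p = 0.165). Of 6 measured genes that make diphthamide, the modified histidine of eEF2, DPH6 fell by 1.205 in shTSC2 (SE 0.10, adjusted p = 0.000596) and was 0.785 higher in the adapted cells than in shTSC2 (adjusted p = 0.00448), while DPH3 rose by 0.53 in shTSC2 (adjusted p = 0.0115). DPH6 stood at 6.10 and 6.13 in control, 5.00 and 4.82 in shTSC2, and 5.72 and 5.67 in shTSC2-adapted. None of 8 measured regulators of EEF2K and of the eIF4E-binding proteins passed in any comparison by limma, while 1 fell or 1 rose in shTSC2 under some other settings and up to 2 were lower between the knockdown groups. By limma 1 had an unadjusted p under 0.05 in shTSC2, 1 in shTSC2-adapted against control and 0 between the knockdown groups. The first was PPP2CA, a phosphatase subunit (-0.325, adjusted p = 0.0548). The other was PRKAG1, of the energy-sensing kinase AMPK (-0.45, adjusted p = 0.187). Of 13 measured TOP mRNAs outside the ribosomal protein genes, EIF3E and the histone chaperone NAP1L1 (-0.465, adjusted p = 0.0160) fell in shTSC2 and none rose, which is close to the share of all genes called lower, with a median of -0.17 beside 0.025 for all genes. Under other settings 0 to 3 fell and 0 or 1 rose. Of 9 genes of that list with a promoter window, 7 had a TOP start. The calls of DPH3, EIF3E and NAP1L1 ended without either control array (adjusted p up to 0.114, 0.100 and 0.121), and that of GSPT2 also without shTSC2 2 (up to 0.111). The EEF1D call ended under 8 of 17 settings, which were array weights, the replicate block, only the 4 arrays compared and the omission of any 1 array other than shTSC2 1 (up to 0.157). Those of DPH6 held under all 16 settings that gave a value. The fall of EIF4B lay below the range of that list, whose lowest member was EIF3E.

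**Figure D5:**
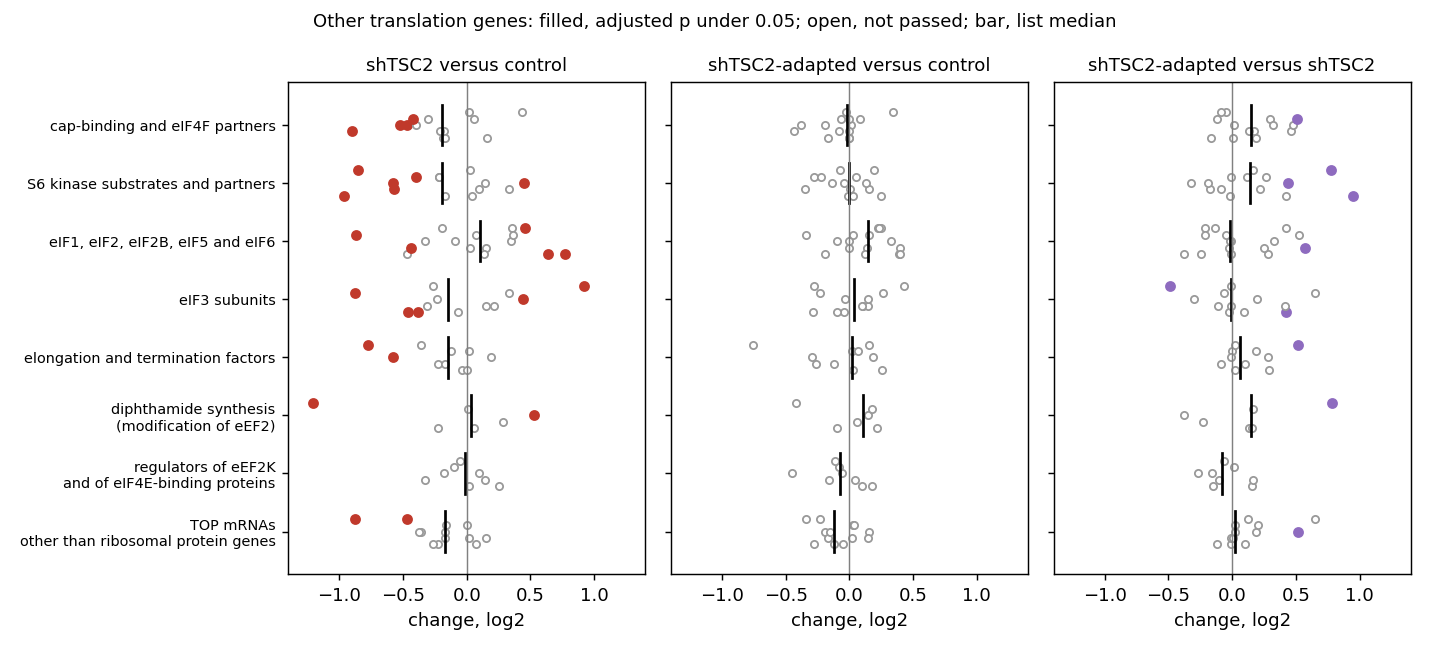
Change on the log2 scale (horizontal axis) of the other translation genes by list (vertical axis), 1 panel per comparison, with filled points where the adjusted p is under 0.05 and a bar at the list median. In shTSC2 versus control 18 of 85 genes are filled to the left (EIF3E in both its lists) and 7 to the right, and in shTSC2-adapted versus control none is filled.

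For the 3 members with the lowest moderated F p-value, the genes of most similar level pattern were sought among genes above the median level whose spread over the arrays was within 1.5 times that of the member. The likeness is Pearson's r over 6 arrays in 3 groups. The 6 points share their groups, so r is a description. PDCD4 was most like ARHGAP11A (r = 0.999), SLC39A10 (0.998) and SKA2 (0.998), among 441 genes compared. EIF4B was most like ZNF609, CNOT2 and CWC22 (0.997 each) among 629 genes. EIF4EBP2 was most like FZD2 (0.994), GSPT2 (0.993) and PTTG1 (0.980) among 1466 genes. GSPT2 stood at 7.26 and 7.20 in control, 6.61 and 6.30 in shTSC2, and 6.26 and 6.69 in shTSC2-adapted, where its difference from control was -0.755 (adjusted p = 0.118).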

How the data were processed

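The deposited values are linear intensities of each probe set, normalized by RMA per the submitters' processing notes. The RMA version is not given in the sources used here. Per the labels' protocols, Trizol was used for extraction and biotin for labelling of 100 ng RNA. RMA equalises array distributions, so a shift common to most genes would be partly removed. Log2 values were taken; the log2 of each deposited intensity lay within 6.99e-10 of 2 decimals. Of 33297 probe sets, 19460 carry 1 symbol, 1754 several and 12083 are unnamed here; the brightest set per gene was kept. Arrays have no read depth, and their number limits the precision.

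One model over 6 arrays was fitted across all genes with limma 3.58.1 in R 4.3.3, with Benjamini-Hochberg adjustment over 18417 genes, and was tested on simulated data. Members and lists were chosen with earlier results of these data known. Named beyond the members: per list and comparison the largest rise and fall that passed, or else the lowest p, plus TSC2, RPS6 and EEF1A1. Alternatives were other scaling, an offset of 16, filters, samples, priors, weights, the length trend and a replicate block. For a given comparison, omitting either array of the group not compared gives the same fit as using only the arrays compared. Counts of settings include each of these, so they are not separate results. No table column was left out. Promoters are from RefSeq, GRCh38.p14.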

Additional observations from a re-analysis of the deposited data

How the results depend on the processing

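With 2 arrays a group, counts of calls depend on how many arrays are fitted as well as on single arrays. Leaving out 1 array leaves 1 in its group and less from which to estimate the spread. A call can end there whatever the level on that array. In shTSC2 versus control the calls of PDCD4 and EIF4B held under all 17 alternatives. The members called there were 2 to 5, and the genes called 1175 (without control 2) to 3895, when 1 array was left out. In shTSC2-adapted versus shTSC2 the genes called were 837 (without shTSC2-adapted 1) to 2600 without 1 array and 1113 with only the 4 arrays compared. In shTSC2-adapted versus control, 48 genes and 0 members were called, and these counts were least stable: 94 genes and 1 member with quantile normalization, 199 and 1 with median centring, 121 and 1 with dim genes left out, 437 and 2 with array weights, 248 and 2 with only the 4 arrays compared, 16 genes with an offset of 16, and 1 member with the length trend removed. Leaving out 1 array gave 0 to 248 genes and 0 to 2 members, and TSC2 changes of -1.08 to -1.01 whose call ended without a control or adapted array (adjusted p 0.0144 to 0.386).

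The deviations of same-numbered arrays correlated at r = -0.10 for shTSC2 with control and -0.19 for shTSC2-adapted with control. Between the knockdown groups r was 0.21. Each group has too few arrays for these values to decide whether same-numbered arrays were handled together. The labels give only the number, and shared handling was not tested. With the replicate block, 3536 genes were called in shTSC2, 1 in shTSC2-adapted against control and 2064 between the knockdown groups, the RPS6KB2 call between these ended, and TSC2 in shTSC2-adapted stood at -1.045 (adjusted p = 0.0515). With control numbers exchanged, an alternative chosen after seeing the data, 4212, 148 and 2732 genes and 4, 1 and 3 members were called.

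Signs turned only for changes that had not passed. Ranges below are over the omission of 1 array. In shTSC2 the genes were EIF4E (-0.000833 with quantile normalization, range -0.02 to 0.24) and RPS6KB1 (0.0260 with the length trend removed, range -0.235 to 0.015). In shTSC2-adapted versus control they were BTRC (0.0422 with the length trend removed, range -0.095 to 0.075), RPS6KB1 (-0.155 to 0.095), EIF4G1 (-0.525 to 0.025) and EEF2K (-0.285 to 0.165). Between the knockdown groups they were EIF4G1 (-0.0075 with quantile normalization, range -0.26 to 0.29), EIF4E (-0.0495 with the length trend removed, range -0.085 to 0.175), RPS6KB1 (-0.0303 with the length trend removed), EIF4EBP2 (-0.225 to 0.185) and GSPT2 (-0.195 to 0.235). The cause was not tested. EIF4E, EEF2K and DPH6 lay below the median gene and have no value with dim genes left out. Of 23 calls of the named pathway genes, 6 held under every setting that gave a value. They were those of BTRC and DPH6 in both comparisons and of EIF2B2 and EIF3K in shTSC2.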
